A study of Mus musculus with 4 samples.

Results

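The Ube2v1 locus and the genes of its Ubc13 partnership were followed through 4 RNA sequencing libraries of C2C12 cells, a mouse myoblast line. The 5 genes were Ube2v1, its neighbour Tmem189, the gene model Gm20431 that reads through both, the paralog Ube2v2 and the partner Ube2n, out of 51826 gene identifiers in the table. They were chosen by name, and the locus was chosen because earlier results of these libraries had shown its 3 genes to differ between the groups. The difference between the groups is therefore given for all 5 genes as a description with no test. The groups were 2 libraries from cells kept in growth medium with vehicle for 6 h and 2 from cells kept for as long in the same medium with recombinant GDF10, a growth factor of the TGF-beta superfamily. No dose was stated.

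Ubiquitin is passed from an activating enzyme (E1) to a conjugating enzyme (E2) and then, with a ligase (E3), to a substrate. Ube2n encodes Ubc13, a conjugating enzyme that builds ubiquitin chains linked through K63, which serve in signalling and DNA repair more than in proteasomal degradation. It does so only in a pair with an E2 variant, a protein with the fold of an E2 and no catalytic cysteine. Ube2v1 encodes the variant Uev1a, known from signalling to NF-kB, and Ube2v2 encodes Mms2, known from the tolerance of DNA damage at replication forks. Tmem189 encodes an unrelated membrane enzyme, the desaturase that forms the vinyl ether bond of plasmalogens, and lies upstream of Ube2v1 on the same strand.

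Total counts were 29641165 to 35597310 per library, 21130 to 21748 genes had a count, and 15467 genes were tested. No library was a repeat of another (chi-square over degrees of freedom 13.8 to 27.1 for the pairs). The 6 myoblast markers summed to 1869 to 1938 CPM (gene counts scaled to library size by TMM and given on the usual CPM scale) in each library, most of it the desmin gene Des. Pax7, a satellite cell marker, was the exception with no count in any library (limit 0.0840 to 0.101 CPM), although a label calls the cells muscle stem cells. A protocol label names longissimus dorsi, a back muscle. Of 8 markers of other cell types, including the fast myosin gene Myh4, 4 were at 0 in every library (Epcam, Hbb-bs, Adipoq and Krt5). The 8 summed to 2.97 to 4.06 CPM. Most of this was Cd68, at 3.41, 2.97, 2.70 and 2.58 CPM in vehicle 1, vehicle 2, GDF10 1 and GDF10 2. Pecam1 had 17, 12, 8 and 16 counts in the same order. In these bulk samples fewer cells with a transcript and less of it per cell cannot be told apart.

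In the GENCODE annotation of mm10 all 3 locus genes are protein coding and lie on the minus strand of chromosome 2. Ube2v1 (ENSMUSG00000078923) spans chr2:167607638-167632095, Tmem189 (ENSMUSG00000090213) chr2:167642608-167689822 and Gm20431 (ENSMUSG00000089739) chr2:167607850-167661496. Gm20431 has a single transcript of 8 exons. Its first 5 exons lie inside exons of Tmem189 and its last 3 inside exons of Ube2v1. Of its 2367 exon bases 694 were shared with Tmem189 and 1673 with Ube2v1, which left 0 of its own. Ube2v1 kept 1048 of 2721 exon bases and Tmem189 2571 of 3265, and Ube2v1 and Tmem189 shared none with each other. The read-through model codes for 371 codons, against 271 in the main transcript of Tmem189 and 147 in that of Ube2v1. It holds 694 of the 813 coding bases of the former, without its last exon, and 419 of the 441 coding bases of the latter, without its first.

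**Figure D1:**
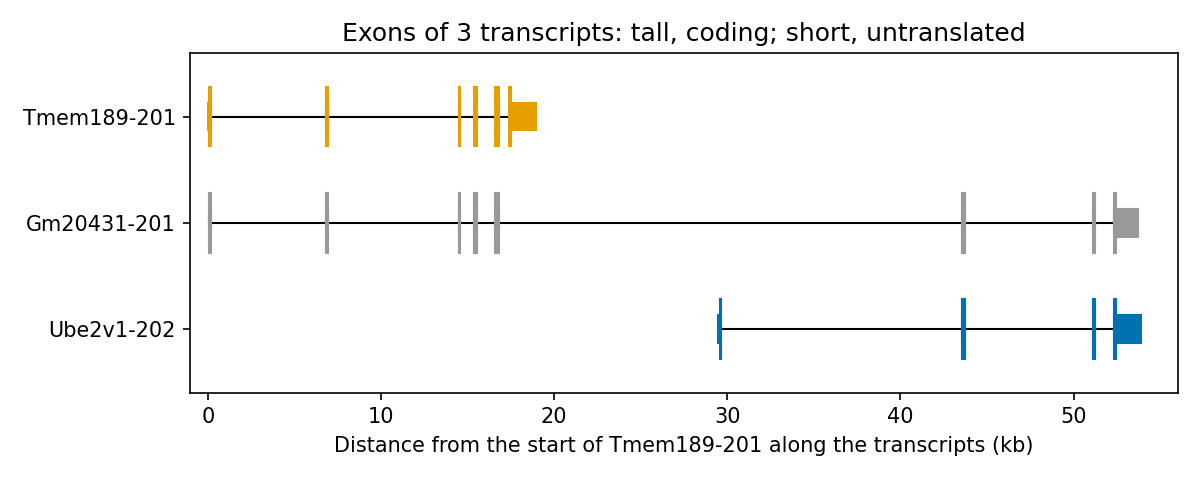
Exons of the main transcripts of Tmem189, Gm20431 and Ube2v1 by distance in kb from the start of the main Tmem189 transcript, drawn to scale in the direction of transcription; tall boxes are coding and short boxes untranslated. Every exon of Gm20431 lines up with an exon of Tmem189 or Ube2v1, and none stands alone.

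What sets the 3 transcripts apart is which exons are joined. The sequences below are the joins that tell them apart, from the GENCODE transcripts, 5′ to 3′, with the last 20 bases of the upstream exon in lower case and the first 30 of the downstream exon in capitals. All are coding sequence. The upstream bases of the first pair are chr2:167644764-167644783, and the downstream bases of Gm20431 and Ube2v1 are chr2:167617948-167617977. Those of Tmem189 downstream are chr2:167644153-167644182, and those of Ube2v1 upstream chr2:167631940-167631959.
Gm20431, exon 5 to 6: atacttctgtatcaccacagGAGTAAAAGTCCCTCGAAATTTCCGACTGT
Tmem189, exon 5 to 6: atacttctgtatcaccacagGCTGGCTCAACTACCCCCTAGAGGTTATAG
Ube2v1, exon 1 to 2: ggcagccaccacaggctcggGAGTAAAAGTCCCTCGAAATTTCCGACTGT

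Gm20431 thus has the upstream exon of Tmem189 and the downstream exon of Ube2v1. Its join was found in 1 annotated transcript, and that of Tmem189 in 3 transcripts of that gene alone. The join of Ube2v1 was also found in the transcripts of Gm8325 and Gm5830, which are annotated as pseudogenes. When every stretch of 50 bases in the transcripts was compared with all other annotated genes on either strand, 45 of 2318 stretches of Gm20431, or 1.94%, were found in no other gene. The shares were 36.5% for Ube2v1, 71.6% for Tmem189, 94.6% for Ube2v2 and 90.5% for Ube2n. Ube2v1 and Ube2v2 had 0 such stretches in common. The rule by which reads in shared exons were assigned to a gene was not stated, so the counts of the single genes of the locus are uncertain.

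Reads counted for Ube2v1 numbered 1053 and 774 in the vehicle pair and 3592 and 3888 in the GDF10 pair. These were 29.5 and 26.2 CPM with vehicle and 119.9 and 112 CPM with GDF10. Both GDF10 libraries stood far above both vehicle libraries, with little spread inside a group. The group means were 27.8 ± 2.35 and 115.7 ± 5.88 CPM (SD, n = 2), or 2.06 as the log2 ratio of GDF10 over vehicle in edgeR's fit of the whole table (standard error 0.0984).

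Tmem189 was counted 991, 739, 1556 and 1651 times in vehicle 1, vehicle 2, GDF10 1 and GDF10 2, or 27.7, 25.0, 51.9 and 47.4 CPM. Again both GDF10 libraries were above both vehicle libraries, by a smaller factor than for Ube2v1. Its log2 ratio was 0.91 (standard error 0.103). An exon of Tmem189 shares 312 bases, on the opposite strand, with Cebpb, the gene of a transcription factor of the C/EBP family. Cebpb had 241, 214, 268 and 252 CPM in vehicle 1, vehicle 2, GDF10 1 and GDF10 2, and its part in the counts of Tmem189 was not tested.

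Gm20431 was counted 3343 and 3006 times in the vehicle pair and 0 times in either GDF10 library. At 93.6 and 102 CPM it was the most counted of the 3 locus genes with vehicle, and it was not detected with GDF10. Taking 3 counts in each GDF10 library as the limit that a count of 0 allows, 0.100 and 0.0861 CPM, it was at least 1048-fold lower there. Such bounds and the intervals of shares below cover counting error only.

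Counts of the 3 genes together came to 5387, 4519, 5148 and 5539 in the same order. The summed level was 151 and 153 CPM with vehicle and 172 and 159 CPM with GDF10. Both GDF10 libraries were slightly higher, and they lay further from each other than the lower of them lay from the vehicle libraries. The means were 152 ± 1.33 and 165 ± 9.10 CPM (SD, n = 2), with a log2 ratio of 0.12 (95% interval −0.05 to 0.30) when the sum replaced the 3 genes in the fit. Without GDF10 replicate 1 this was 0.066.

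**Figure D2:**
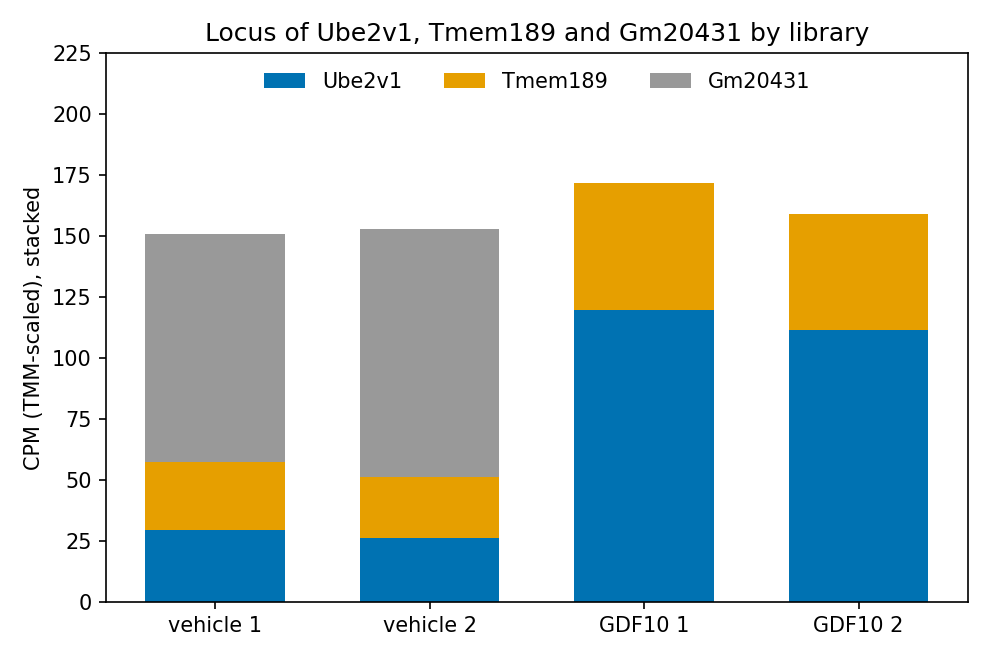
Stacked bars of the TMM-scaled CPM of Ube2v1, Tmem189 and Gm20431 in each of the 4 libraries. Bar heights run from 151 to 172 CPM, while the grey part, Gm20431, takes most of both vehicle bars and is missing from both GDF10 bars.

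Within the locus the division of counts was alike in libraries of one group beside the gap between groups. Gm20431 took 62.1% of the locus counts in vehicle 1 (95% Wilson interval 60.8% to 63.3%) and 66.5% in vehicle 2 (65.1% to 67.9%). In GDF10 1 and 2 its 0 counts allow up to 0.0583% and 0.0542%. Ube2v1 took 19.5% and 17.1% with vehicle and 69.8% and 70.2% with GDF10, and Tmem189 took 18.4%, 16.4%, 30.2% and 29.8%. The share of Gm20431 differed between the vehicle libraries by more than their counting intervals, while the shares of Ube2v1 in the GDF10 libraries overlapped in theirs. Per count of Tmem189 there were 1.06 and 1.05 counts of Ube2v1 in vehicle 1 and 2, against 2.31 and 2.35 in GDF10 1 and 2.

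In CPM the mean of Gm20431 was 97.6 with vehicle, and that of Ube2v1 and Tmem189 was higher with GDF10 by 87.9 and 23.3, or 111 together. Of this 111, 79.1% was in Ube2v1. For comparison, 70.7% of the exon bases of Gm20431 are shared with Ube2v1 and 29.3% with Tmem189. The shares differ, and whether they are related was not tested. The net difference was 13.6 CPM. Sums of a pair of the genes differed from one another: the log2 ratio was −0.12 (95% interval −0.30 to 0.06) for Ube2v1 with Gm20431, 1.61 for Ube2v1 with Tmem189 and −1.32 for Tmem189 with Gm20431. The groups lay close only in sums that held both Ube2v1 and Gm20431, of the 4 sums made within the locus. This follows from the differences of the single genes, which were largest and opposite for these genes, and is no further result.

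Ube2v2, the gene of the other variant (ENSMUSG00000022674, chr16:15552077-15595773), had 893, 898, 731 and 865 counts in vehicle 1, vehicle 2, GDF10 1 and GDF10 2. In CPM the vehicle pair stood at 25.0 and 30.3 and the GDF10 pair at 24.4 and 24.8. The lower vehicle library nearly met the GDF10 libraries, so the difference rested on vehicle 2. Its log2 ratio was −0.17 (95% interval −0.45 to 0.12), and −0.023 without vehicle replicate 2.

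Ube2n, the gene of Ubc13 (ENSMUSG00000074781, chr10:95515145-95545657), had 5277, 4642, 4798 and 4990 counts, or 148 and 157 CPM with vehicle and 160.1 and 143 CPM with GDF10. The groups overlapped, and the libraries with the highest and the lowest level were both GDF10 libraries. Its log2 ratio was −0.01 (95% interval −0.20 to 0.19). Its processed copy Ube2n-ps1, which shares 410 of the 4313 stretches of 50 bases of Ube2n, had 4.42, 5.41, 4.77 and 4.42 CPM. A copy of Ube2v1, Gm8325, had 6.58 ± 0.902 CPM with vehicle and 6.90 ± 0.137 with GDF10. The groups overlapped for both copies.

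**Figure D3:**
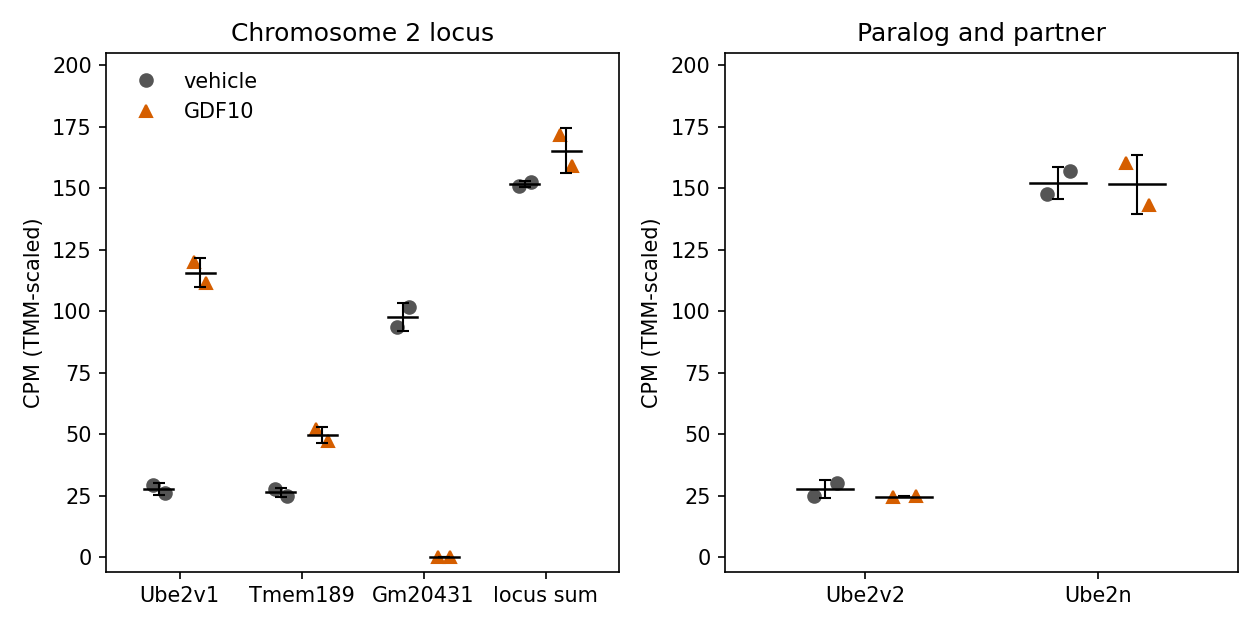
TMM-scaled CPM of each gene and of the locus sum; points are libraries (circles vehicle, triangles GDF10), horizontal lines group means and bars 1 SD (n = 2). Ube2v1, Tmem189 and Gm20431 have wide gaps between the groups, while the locus sum, Ube2v2 and Ube2n stay within 24.4 to 30.3 CPM (Ube2v2) and 143 to 172 CPM (the others).

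Of the 5 genes 4 had groups that did not overlap, Ube2n being the exception. Both GDF10 libraries were above both vehicle libraries for Ube2v1 and Tmem189, beside 18.8% of all 15467 tested genes, and below them for Gm20431 and Ube2v2, beside 19.4%. Either held for 38.2% of tested genes. Since the locus was chosen for its difference, these counts support nothing.

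Levels of different genes were compared as CPM per kb of annotated exon. With vehicle the order was Gm20431 at 41.2 ± 2.38, Ube2n at 36.1 ± 1.53, Ube2v1 at 10.2 ± 0.864, Tmem189 at 8.07 ± 0.600 and Ube2v2 at 3.88 ± 0.530 CPM per kb (SD, n = 2). With GDF10 it was Ube2v1 at 42.5 ± 2.16, Ube2n at 35.9 ± 2.84, Tmem189 at 15.2 ± 0.986 and Ube2v2 at 3.45 ± 0.0421 CPM per kb, with Gm20431 at 0. No neighbours in either order overlapped in their libraries, though each group held only 2 values. The places of Ube2v1, Tmem189 and Gm20431 are uncertain, since it is not known which gene received the reads of shared exons. Ube2n and Ube2v2 kept about the same level per length in both groups. The whole locus was taken over the 5986 exon bases of Ube2v1 and Tmem189. It stood at 25.3 ± 0.223 CPM per kb with vehicle and 27.6 ± 1.52 with GDF10. As it includes the unrelated Tmem189, it is not a level of Ube2v1 to set against Ube2v2.

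Per count of Ube2n the locus had 1.02, 0.974, 1.07 and 1.11 counts in vehicle 1, vehicle 2, GDF10 1 and GDF10 2. Without Tmem189 the ratio went the other way. Ube2v1 with Gm20431 had 0.833, 0.814, 0.749 and 0.779 counts per count of Ube2n, with both GDF10 libraries below both vehicle libraries. Neither direction was resolved. In the fit the 95% interval of the log2 ratio held 0 for the locus sum (−0.05 to 0.30) and for Ube2v1 with Gm20431 (−0.30 to 0.06). In CPM, 38.2% of tested genes had groups that did not overlap. Ube2v2 counts per count of Ube2n were 0.169, 0.193, 0.152 and 0.173, and the groups overlapped. A balance of the paralogs is left out here, since the reads that belong to Uev1a depend on how Gm20431 is counted.

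Few genes in the table went from at least 100 counts to 0, and some did so within a group. Gm20431 was the 1 gene at 0 in both libraries of a group and at 100 counts or more in both of the other. Between the vehicle libraries 5 genes were at 0 in one and at 100 or more in the other, and between the GDF10 libraries 9, in all 13 different genes. One example, named after its values were seen, is H1fx, a linker histone gene, with 0 counts in vehicle 1 and 833 in vehicle 2. Another is Gm49388, with 644, 0, 0 and 588 counts in vehicle 1, vehicle 2, GDF10 1 and GDF10 2. Of these 13 genes 12 were found in the annotation. Of the 12, 10 share exon bases with another gene on their strand, and 4 have no exon base of their own. The overlap was small for some: H1fx had 1193 of its 1217 exon bases to itself and Usp50 2901 of 3105. Hist2h2aa1 had 57 of 586. Whether shared exons bear on these counts of 0 was not tested. Among tested genes 9.23% share exon bases in this way, and 93, or 0.603%, have no exon base of their own, 33 of them protein coding. The 13 were taken from all 51826 identifiers, tested or not, so the shares of tested genes are not a like background.

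The tested genes whose pattern over the 4 libraries lay nearest to Ube2v1, by the Euclidean distance of centred log2 CPM, were Tmem170b (distance 0.32), ENSMUSG00000044060 (0.41) and Cym (0.43). Tmem170b, a transmembrane protein gene, had 4.03, 3.28, 12.8 and 15.8 CPM in the same order of libraries, while the others had at most 16 counts in any library. By this distance, which for a gene at 0 with GDF10 also depends on its level with vehicle, no gene lay close to Gm20431. The nearest, Pcdhgb4, a protocadherin gene, was at 4.92, with 10257, 6942, 314 and 16 counts in the order above. Gm26712 followed at 5.64, with 118, 135, 2 and 2 counts, and Gm6977 at 6.21, with 44, 38, 0 and 0. Both were thus also counted with vehicle and nearly or wholly absent with GDF10, though far lower with vehicle than Gm20431. Such distances rest on 4 libraries and were not tested.

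Genes around this pathway were then read from the same fit, to see whether its other parts differed with GDF10. Of 112 different tested genes in 8 lists, some in more than 1 list, 0 passed edgeR's quasi-likelihood test in either direction, and 0 with DESeq2 or limma-voom, where edgeR called 0.162% of all genes tested (0.084% higher and 0.0776% lower). At an unadjusted p under 0.05 there were 14, of which 5 were higher and 9 lower, or 12.5% beside 5.94% of all genes. This count of 14 was 9 by DESeq2, and 14 to 18 by limma-voom and in the other settings with no library left out. It also changed when a library was left out, which leaves 1 library in a group. The share of all genes was not taken in these other fits, so their counts have no background. The smallest edgeR adjusted p was 0.738. With so low a share called over all genes, 0 calls are likely in any lists of this size. The 0 of these lists, here and below, does not set them apart from other genes. The median log2 ratio was 0.01 over the lists and 0.00 over all genes, so that about as many of all genes were positive as negative. Of the 112 list genes 59 were positive and 53 negative. The splits by sign in single lists, given below, were not tested. Some list genes passed when a library was left out, and they were not the same from fit to fit: Ube2g2 without vehicle replicate 2, Cyld without GDF10 replicate 1, and Birc6, Ikbkg and Tnfaip3 without GDF10 replicate 2. The p-values measure only the spread between these libraries, which the series describes as biological replicates without naming separate cultures.

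The activating enzyme gene Uba1 measured 622 ± 2.27 CPM without and 614 ± 15.7 CPM with GDF10 (log2 ratio −0.02, 95% interval −0.17 to 0.14). Of 29 E1 and E2 enzyme genes 0 passed and 18 had positive fold changes. The lowest p in the list belonged to Uba6, a second activating enzyme, at 39.0 ± 0.522 and 30.6 ± 4.41 CPM (log2 ratio −0.35, unadjusted p = 0.0206, edgeR adjusted p = 0.815). Ube2g2, a conjugating enzyme of endoplasmic reticulum quality control, was named after its values were seen: it had 134, 49.8, 45.3 and 50.9 CPM, so that vehicle 1 alone stood apart. The other E2 variants of the genome, Tsg101, Uevld and Aktip, had log2 ratios of 0.05, 0.00 and 0.14, and 0 of these 3 passed.

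Among 16 ligases described with Ubc13, 0 passed, 10 were positive and 6 negative, with a median of 0.05. Traf6, a ligase of NF-kB signalling, had 28.1, 27.3, 23.3 and 28.7 CPM in vehicle 1, vehicle 2, GDF10 1 and GDF10 2 (log2 ratio −0.09). Rnf8 and Rnf168, ligases that mark chromatin at DNA breaks, had 0.11 and −0.16. Rnf8 shares 1542 exon bases with Gm28043, which had 1535 to 2473 counts, so its value is uncertain. Hltf, a ligase that extends chains on PCNA, had 25.8 and 26.2 CPM with vehicle and 20.8 and 20.3 CPM with GDF10 (log2 ratio −0.34, unadjusted p = 0.0115, edgeR adjusted p = 0.793), and Znrf1 and Stub1 had log2 ratios of 0.47 and 0.19 (edgeR adjusted p = 0.825 for each).

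The list of deubiquitinases and regulators and that of readers and kinases had no gene that passed either, 0 of 11 and 0 of 18. Cyld, a deubiquitinase of K63 chains, stood at 73.8 ± 1.48 and 54.9 ± 10.5 CPM (log2 ratio −0.43, unadjusted p = 0.0173, edgeR adjusted p = 0.815). Its partner Spata2 had a log2 ratio of 0.09 and Otub1, an inhibitor of Ubc13, one of 0.13 with a 95% interval of −0.04 to 0.31. Stam, Chuk and Tax1bp1 had −0.24, −0.22 and −0.16. The medians were 0.05 for the deubiquitinases and regulators and −0.04 for the readers and kinases.

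On the side of Mms2, 0 of 13 genes of DNA damage tolerance at PCNA passed, 5 with positive and 8 with negative fold changes. Pcna stood at 198 ± 8.96 and 197 ± 3.50 CPM (log2 ratio −0.01, 95% interval −0.17 to 0.16) and Rad18, the ligase that starts the modification, at 35.4 ± 1.88 and 35.7 ± 0.882 CPM. Ube2a and Ube2b, the conjugating enzymes that work with Rad18, had log2 ratios of −0.49 and 0.21 (edgeR adjusted p = 0.825 for each). Rev3l, the catalytic subunit of DNA polymerase zeta, had the lowest p of all the lists, at 36.4 ± 0.237 and 27.0 ± 3.78 CPM (log2 ratio −0.43, edgeR adjusted p = 0.738).

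On the side of Tmem189, 0 of 12 genes of plasmalogen synthesis passed, and 9 had negative fold changes, with a median of −0.07. Gnpat and Agps, which make the first ether lipid intermediates in peroxisomes, had log2 ratios of −0.08 and −0.13. Far1, the reductase that supplies fatty alcohol, stood at 40.3 ± 0.287 and 34.3 ± 1.65 CPM (log2 ratio −0.23, unadjusted p = 0.0380, edgeR adjusted p = 0.825). Far2 and Tmem86b were low, at 2.80 and 2.58 CPM with vehicle.

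Of 13 tested neighbours on chromosome 2, 0 passed and 9 were positive, with a median of 0.10. Cebpb stood at 227 ± 18.7 and 260.0 ± 11.7 CPM (log2 ratio 0.19, 95% interval −0.003 to 0.39) and Rnf114, a ligase gene, at 47.6 ± 0.440 and 53.6 ± 0.718 CPM (0.17). Snai1, the gene of the transcription factor Snail, had a log2 ratio of −0.02 and Ptpn1, a tyrosine phosphatase, one of 0.10. The lowest p was that of Dpm1, of dolichol phosphate mannose synthesis, at 14.6 ± 2.22 and 10.9 ± 1.03 CPM (log2 ratio −0.42, edgeR adjusted p = 0.825). Dpm1 shares 895 exon bases with Gm20716, and its value is uncertain: with the counts of Gm20716 added, the libraries stood at 16.2, 23.4, 22.0 and 19.9 CPM in vehicle 1, vehicle 2, GDF10 1 and GDF10 2, and the groups overlapped. Over the tested neighbours the log2 ratio ran from −0.42 to 0.36.

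**Figure D4:**
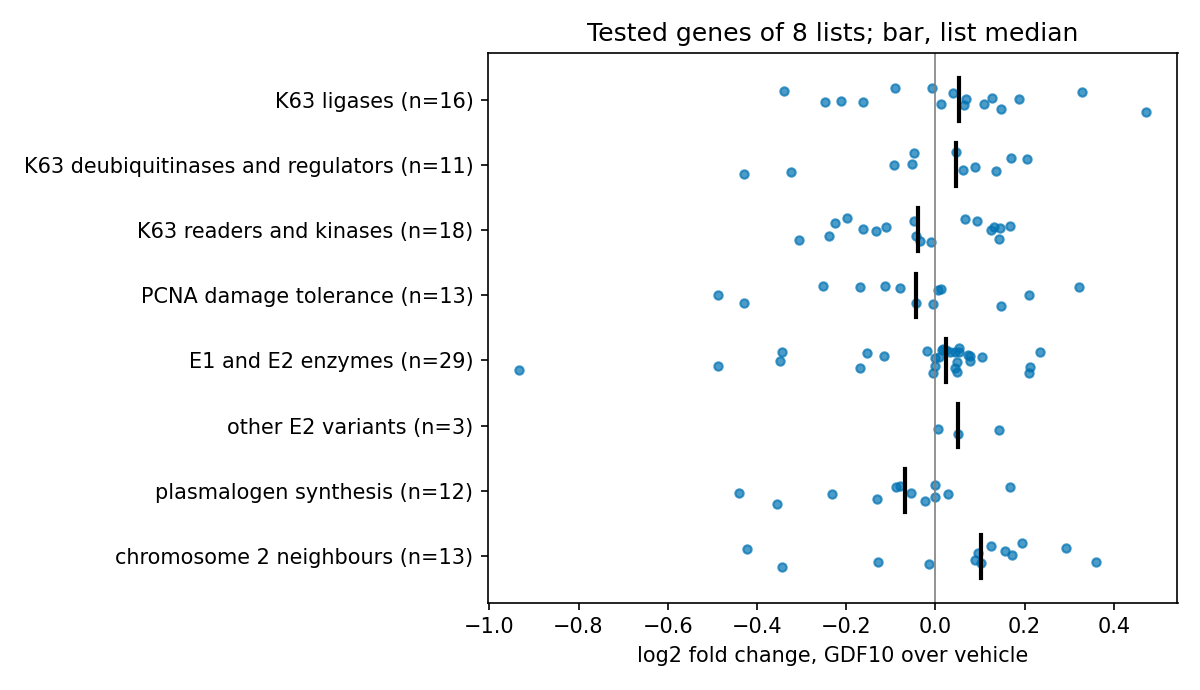
Log2 ratio, GDF10 over vehicle, of each tested gene in 8 lists; points are genes, spread vertically for view, and bars list medians. Medians run from −0.07 to 0.10, points from −0.93 to 0.47, and 0 of the 112 genes passed the test.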

How the data were processed

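The authors deposited 1 table of raw counts, as whole numbers for each gene and library. The submitters' processing notes name bedtools 2.26.0, HISAT2 2.0, DESeq2 1.12.4, StringTie 1.3.3b, Trimmomatic 0.36, FastQC 0.11.2 and build mm10, with no role for each. How reads were counted, with which annotation and whether by strand, is not given in the sources used here. Groups came from the sample titles, and the columns not named GDF10 were taken as vehicle. Of 51826 identifiers 51633 matched GENCODE release M21, the source of names, exon positions and transcript sequences.

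Genes were kept by filterByExpr, scaled by TMM and fitted with edgeR 4.0.16 in R 4.3.3 (glmQLFit and glmQLFTest, robust, no covariates), with Benjamini-Hochberg adjustment over all 15467 genes tested and a threshold of 0.05. The step was also run on simulated data with known changes. Those data did not copy the outlying single values of these libraries, and no power for small differences is claimed from them. For sums, the summed counts replaced the genes in the table. A standard error is the size of the log2 ratio over the root of F. Alternatives used DESeq2 1.42.0, limma 3.58.1, other scalings and filters, and left out each library.

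The members and lists were chosen with earlier results of these data known. Named were the 5 members, up to 3 genes of lowest p per list, genes fixed by name, the 3 genes nearest in pattern to Ube2v1 and to Gm20431, and genes said to be named after their values were seen. List genes called in some alternative only (Ube2g2, Ikbkg and Tnfaip3 among them) fall outside this rule and were named for that call. Of 15 chromosome 2 neighbours 14 were found and 13 tested.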

Additional observations from a re-analysis of the deposited data

How the results depend on the processing

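Under other scalings, filters and tools the log2 ratios of the locus sum, Ube2v1, Tmem189, Ube2v2 and Ube2n moved by less than the spread between replicates. With a library left out they ranged from 0.066 to 0.18 for the locus sum, 1.97 to 2.15 for Ube2v1, 0.84 to 0.99 for Tmem189, −0.30 to −0.023 for Ube2v2 and −0.09 to 0.07 for Ube2n, and the bound for Gm20431 from 974 to 1134-fold. Summing other genes gave −0.12 for Ube2v1 with Gm20431 and 1.61 for Ube2v1 with Tmem189, since these sums leave out a gene. The number of genes called was 25, against 9 when estimates were not robust, 11 by limma-voom and 65 by DESeq2, and 27 to 224 with a library left out (224 when this was GDF10 replicate 2, 112 for GDF10 replicate 1, 44 for vehicle replicate 2). The cause was not tested. Pathway genes called were 0 to 3 with a library left out and 0 otherwise. The replicate numbers were not shown to pair the libraries: deviations of same-numbered libraries correlated at 0.07 over genes, and with the replicate number as a block 23 genes and 0 pathway genes were called and the locus sum stood at 0.12. With 2 libraries per group, differences as small as that of the locus sum were not resolved.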

Other observations

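Another read-through model lies near the locus. Gm20716, named after its values were seen, has 0 exon bases of its own and shares 4393 of the 5350 exon bases of Adnp, a transcription factor gene, and 895 of the 7489 of Dpm1. It had 0 counts in vehicle 1 and 306 in vehicle 2, and 310 and 340 in GDF10 1 and 2. Dpm1 alone had 578, 386, 349 and 355 counts in the same order, and Dpm1 with Gm20716 at 16.2, 23.4, 22.0 and 19.9 CPM. Vehicle 1 thus had the highest value of Dpm1 alone and the lowest of the sum. Of the 113 list genes found, 10 share exon bases with another gene on their strand, and for 3 of them (Rnf8, Adnp and Dpm1) that gene had at least 100 counts in a library.

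Some ubiquitin genes differed more within the vehicle group than between groups. Map3k7, the kinase TAK1 that acts downstream of K63 chains, had 40.5 and 81.1 CPM with vehicle and 66.6 and 65.9 with GDF10. Ube2s, a conjugating enzyme of the anaphase-promoting complex, had 179 and 117 CPM with vehicle and 134 and 133 with GDF10. These genes were named after their values were seen, and the cause was not tested.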
